A study of Mus musculus with 4 samples.

Results

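The genes described here are 9 nuclear factors that steer lymphocytes into effector states: *Tbx21*, *Eomes*, *Zeb2*, *Bhlhe40*, *Prdm1*, *Batf*, *Maf*, *Rora* and *Hopx*. They were chosen by name for these roles, and they are 9 of the 27998 genes of the deposited table. The cells were T cells enriched from the blood of C57BL/6 mice with subcutaneous MC-38 tumours, taken on day 18, and their 3' cDNA was counted as UMIs (unique molecular identifiers, each standing for a captured mRNA molecule). The mice were 6 to 8 weeks of age when the experiment began. Each of 4 groups gave 1 library. The Untreated group received no antibody. PDL1 mice were given 150 µg of antibody to PD-L1 at days 10, 13 and 17. OX40 mice were given 150 µg of agonist antibody to OX40 together with 25 µg of CpG at day 7. PDOX mice were given all of these.

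A naive T cell that meets its antigen replaces the factors that keep it quiescent with factors that open cytokine, granule and homing genes. Which effector factors it carries differs between short-lived killers, memory precursors, helper cells and regulatory cells. NK cells use several of the same factors without needing antigen.

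*Tbx21* (ENSMUSG00000001444, chromosome 11: 97098007 to 97115331 in build GRCm38.p6) encodes T-bet, the T-box factor of type 1 effector cells. *Eomes* (ENSMUSG00000032446, chromosome 9: 118478186 to 118486132) encodes its T-box relative, which serves memory CD8 T cells and mature NK cells. *Zeb2* (ENSMUSG00000026872, chromosome 2: 44983512 to 45117442) encodes a zinc-finger repressor that acts with T-bet in terminal effector CD8 T cells and NK cells, and it is also present in B cells and monocytes. *Bhlhe40* (ENSMUSG00000030103, chromosome 6: 108660629 to 108666925) encodes a basic helix-loop-helix repressor that sustains cytokine output and mitochondrial function of effector T cells. *Prdm1* (ENSMUSG00000038151, chromosome 10: 44437174 to 44528558) encodes Blimp-1, a repressor of terminally differentiated lymphocytes. *Batf* (ENSMUSG00000034266, chromosome 12: 85686720 to 85709087) encodes an AP-1 factor that opens chromatin after antigen receptor signals. *Maf* (ENSMUSG00000055435, chromosome 8: 115703253 to 115706894) encodes c-MAF, a basic leucine-zipper factor of follicular helper, regulatory and IL-10-producing T cells. *Rora* (ENSMUSG00000032238, chromosome 9: 68653404 to 69388246) encodes the nuclear receptor RORα of innate lymphoid cells, tissue-homing T cells and effector CD4 T cells. *Hopx* (ENSMUSG00000059325, chromosome 5: 77086986 to 77115123) encodes a small homeodomain cofactor that does not bind DNA by itself and that marks long-lived effector T cells.

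The deposited libraries held 862 barcodes for Untreated, 1451 for PDL1, 1583 for OX40 and 1538 for PDOX, with 2392650, 4969885, 4931178 and 4121932 UMIs in the same order. Cells with at least 200 detected genes were kept, which left 784, 1446, 1559 and 1510 cells with median depths of 1434.5, 1618, 1569 and 1494.5 UMIs. Only 16 barcode sequences occurred in more than 1 library. CD8 T cells were those with *Cd8a* or *Cd8b1* UMIs, CD4 T cells those with *Cd4* UMIs and NK cells those with *Ncr1* UMIs, each without UMIs of the other gates' genes. This gave 335, 674, 680 and 473 CD8 T cells, 106, 201, 270 and 307 CD4 T cells, and 14, 6, 32 and 16 NK cells. A level below is the UMIs of a gene per 10000 UMIs of the pooled cells, and a share is the percent of cells with at least 1 UMI. Intervals are exact at 95% and cover counting error only. With 1 library per group, differences between mice, between libraries and between treatments cannot be told apart, and the values by treatment were not tested.

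**Figure D1:**
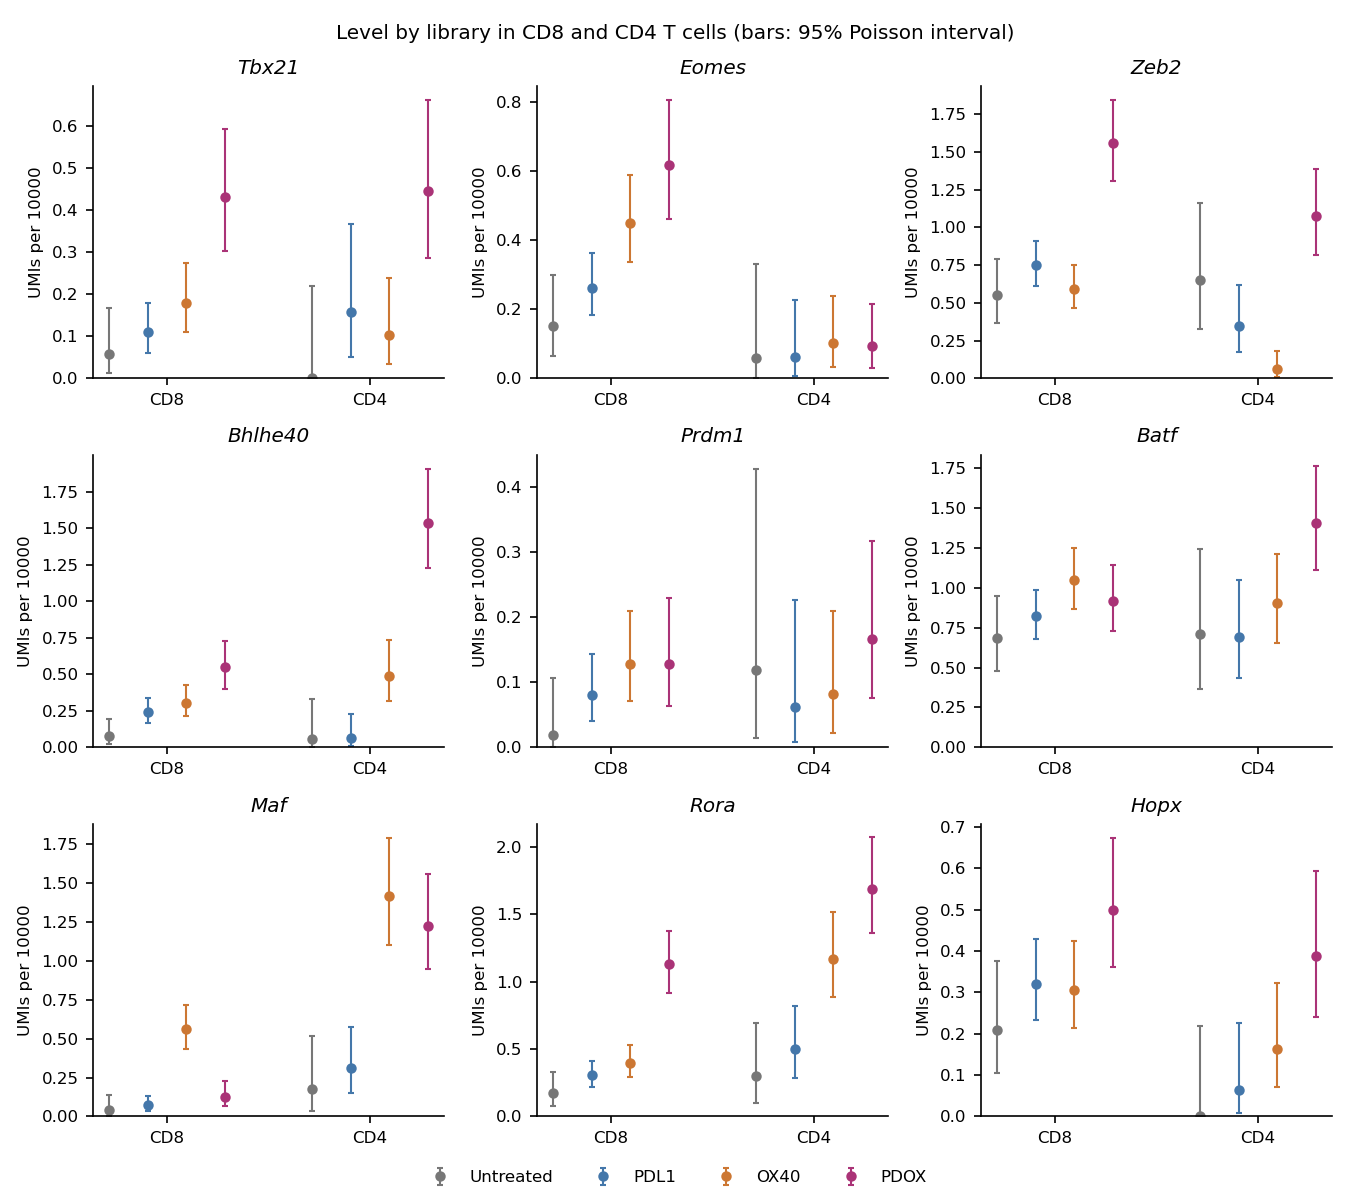
Level of each effector transcription factor in CD8 and CD4 T cells of the 4 libraries, in UMIs per 10000. Bars show exact 95% Poisson intervals of the counts.

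In CD8 T cells *Tbx21* stood at 0.0572 in Untreated, 0.109 in PDL1, 0.178 in OX40 and 0.430 in PDOX. T-bet mRNA was nominally scarcest in Untreated and highest in PDOX, where the interval of 0.303 to 0.593 lay above those of the other 3 libraries. The PDOX level was 7.52 times the Untreated level (interval 2.38 to 38.1) and 2.41 times the OX40 level (1.37 to 4.33). The excess over OX40 was smaller in cleaned gates, which leave out cells with 2 or more markers of a non-T lineage and T cells without CD3 UMIs (1.83, 0.959 to 3.51). With each cell thinned to 750 UMIs *Tbx21* stood at 0.0442 in Untreated, 0.0629 in PDL1, 0.215 in OX40 and 0.253 in PDOX. At that depth the PDOX interval (0.109 to 0.498) overlapped with those of the other 3 libraries, and no difference between OX40 and PDOX was detectable. Among CD4 T cells *Tbx21* had 0 UMIs in the 106 Untreated cells, and stood at 0.157 in PDL1, 0.102 in OX40 and 0.444 in PDOX. PDOX was the highest of the CD4 values, and its interval of 0.285 to 0.661 lay above the 0.218 that the count of 0 allowed in Untreated (upper end of the Poisson interval). This parting was lost in cleaned gates (PDOX from 0.247, Untreated up to 0.257) and after thinning (from 0.193, up to 0.523).

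*Eomes* in CD8 T cells stood at 0.153 in Untreated, 0.262 in PDL1, 0.450 in OX40 and 0.616 in PDOX. PDOX was nominally the highest, but the OX40 interval (0.337 to 0.589) and the PDOX interval (0.462 to 0.806) overlapped. After thinning the *Eomes* levels were 0.177, 0.168, 0.539 and 0.348, with OX40 the highest, so PDOX held no clear excess over OX40. The *Eomes* level of PDOX was 4.04 times (1.91 to 9.84) and that of OX40 was 2.95 times (1.39 to 7.19) the Untreated level. CD4 T cells carried almost no *Eomes*, with 1, 2, 5 and 5 UMIs in the 4 libraries. This T-box factor was thus a CD8 and NK gene in this blood.

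*Zeb2* in CD8 T cells stood at 0.553 in Untreated, 0.749 in PDL1, 0.595 in OX40 and 1.56 in PDOX. PDOX was the highest, with the other 3 intervals overlapping and ending at 0.794, 0.909 and 0.752, below the 1.31 where the PDOX interval began. The *Zeb2* level of PDOX was 2.82 times that of Untreated (1.88 to 4.37) and 2.62 times that of OX40 (1.95 to 3.55), while OX40 was 1.08 times Untreated (0.689 to 1.72). Of the 29 *Zeb2* UMIs of Untreated only 4 remained in cleaned gates, where the CD8 levels were 0.105, 0.516, 0.551 and 1.58. There PDL1 stood at 4.93 times (1.81 to 18.8), OX40 at 5.27 times (1.95 to 19.99) and PDOX at 15.1 times (5.73 to 56.5) the Untreated level, so all 3 treated libraries were higher and PDOX remained the highest. The CD4 levels of *Zeb2* were 0.651 in Untreated, 0.345 in PDL1, 0.0615 in OX40 and 1.07 in PDOX. OX40 was the lowest, with 3 UMIs against 58 in PDOX, a ratio of PDOX to OX40 of 17.5 (5.69 to 87.2). In cleaned gates the CD4 levels of *Zeb2* were 0.139, 0.141, 0.0653 and 1.12, on 2, 4, 3 and 52 UMIs. Untreated, PDL1 and OX40 were then low, on too few UMIs to compare them with each other, and PDOX stood at 8.05 times Untreated (2.12 to 68.3).

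*Bhlhe40* in CD8 T cells stood at 0.0763 in Untreated, 0.240 in PDL1, 0.306 in OX40 and 0.547 in PDOX. All 3 treated libraries lay above Untreated, with ratios of 3.15 (1.12 to 12.2) for PDL1, 4.01 (1.44 to 15.5) for OX40 and 7.17 (2.62 to 27.4) for PDOX. In cleaned gates Untreated CD8 T cells had 0 *Bhlhe40* UMIs, which allowed a level of up to 0.0965, and the intervals of OX40 (0.180 to 0.391) and PDOX (0.400 to 0.783) lay above it while that of PDL1 (0.0729 to 0.234) did not. In CD4 T cells *Bhlhe40* stood at 0.0592 in Untreated, 0.0628 in PDL1, 0.492 in OX40 and 1.54 in PDOX. Here PDL1 stayed at the Untreated level and both libraries with anti-OX40 were high, PDOX at 3.12 times OX40 (1.96 to 5.15). The Untreated CD4 level rested on 1 UMI, which left its ratio to PDOX nearly unbounded (4.53 to 1037).

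*Batf* in CD8 T cells stood at 0.686 in Untreated, 0.822 in PDL1, 1.05 in OX40 and 0.919 in PDOX. These 4 intervals overlapped, with OX40 at 1.52 times (1.04 to 2.27; in cleaned gates 1.41, 0.925 to 2.23) and PDOX at 1.34 times (0.892 to 2.04) the Untreated level. Its CD4 levels stood at 0.710, 0.690, 0.902 and 1.41. PDOX stood at 1.98 times Untreated (1.07 to 4.00), and in cleaned gates at 2.20 times (1.13 to 4.78). OX40 stood at 1.27 times Untreated in CD4 T cells (0.659 to 2.64). *Batf* was thus present in T cells of every library. *Prdm1* had 1, 11, 15 and 11 UMIs in CD8 T cells and 2, 2, 4 and 9 UMIs in CD4 T cells, too few for a reading of Blimp-1 by library.

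*Maf* in CD8 T cells stood at 0.0381 in Untreated, 0.0728 in PDL1, 0.561 in OX40 and 0.128 in PDOX. It was highest in OX40, and the OX40 interval of 0.434 to 0.714 overlapped with none of the others. The *Maf* level of OX40 was 14.7 times that of Untreated (3.91 to 124) and 7.71 times that of PDL1 (3.94 to 16.8). PDOX held 0.228 times the OX40 level (0.109 to 0.435), although both groups received the agonist. In CD4 T cells *Maf* stood at 0.178 in Untreated, 0.314 in PDL1, 1.41 in OX40 and 1.22 in PDOX, and there the last 2 overlapped, with a ratio of PDOX to OX40 of 0.864 (0.607 to 1.23). In the CD8 gate c-MAF mRNA thus peaked in OX40, while in the CD4 gate both agonist groups were high.

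*Rora* in CD8 T cells stood at 0.172 in Untreated, 0.306 in PDL1, 0.399 in OX40 and 1.13 in PDOX. PDOX was clearly the highest, its interval of 0.915 to 1.38 lying above the other 3, with ratios of 6.57 to Untreated (3.32 to 14.8) and 2.82 to OX40 (1.97 to 4.09), and OX40 too stood above Untreated (2.33, 1.13 to 5.40; in cleaned gates 1.90, 0.834 to 5.06). The CD4 levels of *Rora* were 0.296 in Untreated, 0.502 in PDL1, 1.17 in OX40 and 1.68 in PDOX. Both agonist groups were high in this lineage, at 3.95 times (1.60 to 12.6) and 5.69 times (2.35 to 17.9) the Untreated level, and PDOX stood above OX40 (1.44, 1.02 to 2.05). RORα mRNA was therefore highest in PDOX in either lineage. In cleaned gates the interval of OX40 over Untreated reached below even in CD8 T cells but not in CD4 T cells (3.31, 1.33 to 10.6). A difference between the lineages in this excess was not tested.

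*Hopx* in CD8 T cells stood at 0.210 in Untreated, 0.320 in PDL1, 0.306 in OX40 and 0.500 in PDOX. PDOX was the highest, at 2.38 times Untreated (1.21 to 5.13), and its interval overlapped with those of the other 3 libraries. *Hopx* in CD4 T cells had 0 UMIs in Untreated and stood at 0.0628 in PDL1, 0.164 in OX40 and 0.389 in PDOX. The PDOX interval began at 0.241, just above the 0.218 that the count of 0 allowed in Untreated, and in cleaned gates the ends crossed (0.230 and 0.257).

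Counted over the members with at least 20 UMIs in the pair of libraries, 6 of 7 stood at 2-fold or more above Untreated in CD8 T cells of PDOX, where 5.3% of all genes did so. *Batf* was the exception, and *Prdm1* and *Maf* were below the count limit. In OX40 the number was 5 of 8 (*Tbx21*, *Eomes*, *Bhlhe40*, *Maf* and *Rora*; 3.73% of all genes), and in PDL1 it was 1 of 6 (*Bhlhe40*; 4.6%). For CD4 T cells it was 5 of 7 in PDOX (*Tbx21*, *Bhlhe40*, *Maf*, *Rora* and *Hopx*; 9.56%), 3 of 4 in OX40 (*Bhlhe40*, *Maf* and *Rora*; 7.46%) and 0 of 3 in PDL1 (4.57%). With each cell thinned to 750 UMIs fewer members had the counts, and the CD8 numbers were 3 of 4 in PDOX (201 of 4185 genes in all), 2 of 4 in OX40 (212 of 4914) and 0 of 2 in PDL1 (188 of 5026). The limit was set on the pair, so a scarce member such as *Tbx21* (37 and 3 UMIs in CD8 T cells of PDOX and Untreated) entered only through the library where it was high and then had to be past the fold. In cleaned gates the CD8 counts were 6 of 7 in PDOX (295 of 6034 genes in all), 5 of 8 in OX40 (with *Zeb2* and not *Rora*; 312 of 6862) and 1 of 5 in PDL1 (*Zeb2* in place of *Bhlhe40*; 288 of 6820). The cleaned CD4 count of PDOX was 5 of 5 (*Zeb2*, *Bhlhe40*, *Batf*, *Maf* and *Rora*; 437 of 4563). These counts are a description, carry no test and are not support for a shared gain of the members.

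Deeper cells show a gene more often, so shares were also taken after thinning each cell to 750 UMIs, leaving out 115, 111, 196 and 212 shallower cells. *Rora* was found in 2.69, 4.75, 5.29 and 15.2% of CD8 T cells, and after thinning in 0.993, 1.42, 2.91 and 9.24%. Beside these, NK cells showed *Rora* in 5.88% of 68 cells (1.63 to 14.4) at a median depth of 1734.5 UMIs, against 1514, 1736.5, 1673.5 and 1661 in CD8 T cells. PDOX kept the most *Rora*-positive CD8 T cells at equal depth. *Maf* was found in 0.943, 2.99, 13.7 and 17.9% of CD4 T cells, and after thinning in 1.06, 2.13, 8.10 and 9.12%. NK cells, which make little c-MAF and served as a background type, were positive for *Maf* in 2.94% (0.358 to 10.2), and after thinning in 0 of 65 cells, against CD4 median depths of 1459.5, 1525, 1669 and 1681 UMIs. The CD4 share of PDOX stood above this background at both depths. That of OX40 was nominally above it at both depths, with overlapping intervals, and those of Untreated and PDL1 did not part from it.

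NK cells were few, and *Zeb2* was the factor best counted in them. It stood at 3.02, 4.72, 6.78 and 7.51 in NK cells of Untreated, PDL1, OX40 and PDOX. All 4 libraries held more of it per 10000 UMIs in NK cells than in CD8 T cells. *Tbx21* had 8, 2, 11 and 1 UMIs in NK cells of the same libraries, and *Eomes* had 8, 0, 11 and 1 UMIs, with 23.5% of the 68 cells positive. CD4 T cells, which should lack *Eomes*, showed it in 1.36% at a median depth of 1609.5 UMIs, against 1734.5 in NK cells. The T-box UMIs of NK cells came almost all from Untreated and OX40, and in PDOX the NK levels (0.358 for both genes) were no higher than those of CD8 T cells.

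*S100a4* marks antigen-experienced T cells, and splitting on at least 1 of its UMIs gave 13, 78, 119 and 155 positive CD8 T cells and 10, 13, 74 and 155 positive CD4 T cells. Positive cells made up 3.88, 11.6, 17.5 and 32.8% of CD8 T cells and 9.43, 6.47, 27.4 and 50.5% of CD4 T cells. They were deeper, with median UMIs in CD8 of 2168, 3635.5, 2109 and 2031 against 1488.5, 1684, 1619 and 1465.5 in negative cells. In each library at least 1 of the 9 factors was seen in 69.2, 75.6, 75.6 and 73.5% of positive CD8 T cells, against 20.2, 22.5, 24.6 and 35.2% of negative ones. In cleaned gates the positive shares were 33.3, 66.7, 72.7 and 75.4%, the first of them 2 of 6 cells, and these shares were not taken at equal depth. PDOX thus had the highest share of *S100a4* positive CD8 T cells and, among the negative ones, the highest share with a factor.

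**Figure D2:**
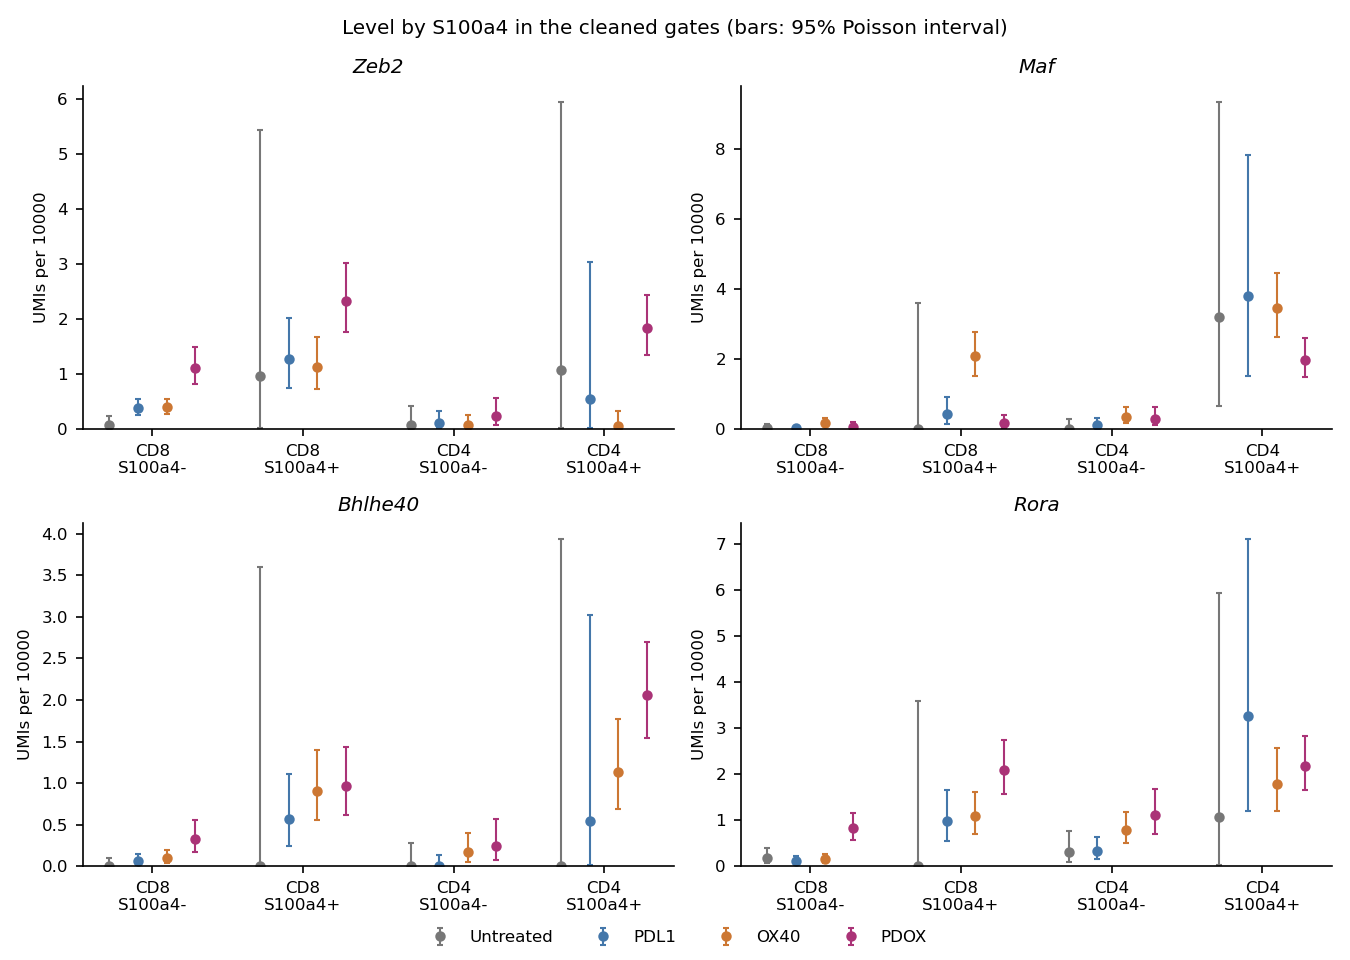
Level of *Zeb2*, *Maf*, *Bhlhe40* and *Rora* in CD8 and CD4 T cells with and without *S100a4* UMIs, by library, in cleaned gates. Bars show exact 95% Poisson intervals of the counts.

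*Bhlhe40* stood at 0.824, 0.777, 0.942 and 0.946 in positive CD8 T cells of Untreated, PDL1, OX40 and PDOX, against 0.0205, 0.0673, 0.101 and 0.260 in negative cells. All positive values lay above every negative value, although that of Untreated rested on 13 cells, and in cleaned gates the positive levels were 0, 0.565, 0.903 and 0.966. Among negative cells PDOX stood above OX40 (ratio 2.57, 1.02 to 6.81), so this repressor differed by library outside the *S100a4* gate as well. *Rora* stood at 0.275, 0.837, 1.12 and 1.72 in positive CD8 T cells, against 0.164, 0.135, 0.169 and 0.700 in negative ones. Here the level within the positive cells also differed by library, and PDOX was the highest on both sides. *Zeb2* stood at 4.94, 1.88, 1.29 and 2.31 in positive CD8 T cells, against 0.225, 0.385, 0.371 and 1.02 in negative ones. *Hopx* was higher in positive CD8 T cells of all 4 libraries, at 0.549, 0.657, 0.419 and 0.695 against 0.184, 0.212, 0.270 and 0.360. *Batf* was higher in 3 libraries, at 1.17, 1.99 and 1.36 against 0.712, 0.741 and 0.600 in PDL1, OX40 and PDOX, and was not higher in Untreated. The *S100a4* positive CD8 gate thus joined a bHLH repressor, a nuclear receptor, a zinc-finger repressor, a homeodomain cofactor and an AP-1 factor. This gate also held monocyte mRNA, where a monocyte list summed to 348 in Untreated and 107 in PDL1, against 11.5 and 13.3 in negative cells.

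In the test of positive against negative CD8 T cells (edgeR on summed counts, 4 libraries as blocks, Benjamini-Hochberg over all genes at 0.05), 927 of 5536 genes differed. Of the members 5 of 6 tested were called higher, where 16.7% of all tested genes were called. The filter on low counts let a scarce member enter through the positive cells alone, where it was high. The count of members is therefore a description and no support for a shared gain. *Bhlhe40* rose by 2.97 in log2 units (standard error 0.36, adjusted p 1.1e-04, higher in 4 of 4 libraries). *Zeb2* rose by 2.15 (0.33, 6.6e-04, 4 of 4), *Rora* by 2.08 (0.30, 4.8e-04, 4 of 4), *Hopx* by 1.20 (0.28, 0.0102, 4 of 4) and *Batf* by 1.09 (0.22, 4.6e-03, 3 of 4). *Eomes* did not pass (0.64, 0.29, 0.161, 3 of 4), and the filter on low counts left out *Tbx21*, *Prdm1* and *Maf*. *Batf* lost its call without OX40 (0.84), *Hopx* without PDL1 (0.93) and *Zeb2* in the thinned fit (1.01), which also lacked Untreated, where too few positive cells were left. The number of genes called fell to 304 without PDL1 and to 450 without OX40.

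Monocyte mRNA was part of the positive gate, since a monocyte list of 7 genes summed to 348, 107, 23.8 and 20.2 in positive CD8 T cells, against 11.5, 13.3, 12.7 and 17.2 in negative ones. All 7 genes were seen in Untreated and PDL1, with *Lyz2* on top (269 and 63.5), while *Cd14* was at 0 in OX40 and PDOX. Cleaned gates brought the sums in positive cells to 19.5, 9.54, 8.49 and 15, of which *Ly6c2* alone held 17.5, 8.62, 8.13 and 14.7. There *Csf1r*, *Cd14* and *Fcgr1* were at 0 in all 4 libraries. *Zeb2*, a monocyte gene itself, then stood at 0.974, 1.27, 1.13 and 2.34 in positive CD8 T cells, against 0.0807, 0.384, 0.394 and 1.12 in negative ones. The cleaned Untreated value rested on 1 UMI in 6 cells, and among the other 3 libraries PDOX was the highest. The cleaned test, with PDL1, OX40 and PDOX, called 7 of 7 tested members higher, where 17.1% of all tested genes were called (813 of 4747). A scarce member could again enter through the positive cells alone, so this count too is a description. *Tbx21* (2.18, standard error 0.46) and *Eomes* (1.02, 0.31) joined *Bhlhe40* (2.55, 0.40), *Rora* (2.19, 0.31), *Zeb2* (1.43, 0.23), *Batf* (1.43, 0.21) and *Hopx* (1.32, 0.37), while *Prdm1* and *Maf* were filtered out. *Hopx* lost its call without PDL1 (0.91) and without PDOX (1.44), *Eomes* lost it without OX40 (0.73) and without PDOX (1.25), and the gene count fell to 382 without PDOX.

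Among CD4 T cells split by *S100a4*, *Maf* stood at 1.22, 2.33, 3.22 and 1.82 in positive cells of Untreated, PDL1, OX40 and PDOX, against 0, 0.104, 0.328 and 0.324 in negative cells. All 4 positive values lay above all 4 negative ones, and positive cells with *Maf* UMIs made up 43.2% in OX40 and 31.0% in PDOX. *Rora* stood at 0.408, 2.33, 1.80 and 2.1 in positive CD4 T cells, against 0.277, 0.312, 0.787 and 1.06 in negative ones. *Bhlhe40* stood at 0.408, 0.664, 1.04 and 2.41 in positive CD4 T cells, with 0 UMIs in negative cells of Untreated and PDL1 and levels of 0.164 and 0.231 in those of OX40 and PDOX. *Zeb2* stood at 2.86, 2.33, 0.0546 and 1.60 in positive CD4 T cells, and in cleaned gates at 1.07, 0.544, 0.0597 and 1.83, where the first 3 values rested on 1 UMI each and only PDOX held it in number. *Batf* was higher in positive CD4 T cells of all 4 libraries, at 1.22, 0.997, 1.20 and 1.51 against 0.623, 0.658, 0.721 and 1.25.

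The same test in CD4 T cells called 307 of 3344 genes, and 2 of 3 tested members were higher where 9.18% of all tested genes were called. Here and in cleaned gates a scarce member could enter through the positive cells alone, so the member counts are a description. *Maf* rose by 3.30 (standard error 0.35, adjusted p 1.0e-05 by edgeR with Benjamini-Hochberg, 4 of 4 libraries) and *Rora* by 1.29 (0.28, 6.0e-03, 4 of 4). *Batf* did not pass (0.54, 0.26, 0.241, 4 of 4), and *Tbx21*, *Eomes*, *Zeb2*, *Bhlhe40*, *Prdm1* and *Hopx* were filtered out. *Rora* lost its call without OX40 (1.43) and in the thinned fit (1.22), which also lacked Untreated, and the gene count fell to 126 without OX40 and to 190 without PDOX. The monocyte list summed to 223, 68.8, 2.13 and 7.68 in positive CD4 T cells (6, 5, 4 and 5 of 7 genes seen; top *Lyz2* at 156 and 44.5, *Ifitm3* at 1.04 and *Ly6c2* at 4.57). In cleaned gates, with OX40 and PDOX, 3 of 4 tested members were called where 13% of all tested genes were (517 of 3965): *Maf* (3.14, 0.33), *Bhlhe40* (2.93, 0.40) and *Rora* (1.10, 0.27), and not *Batf*.

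**Figure D3:**
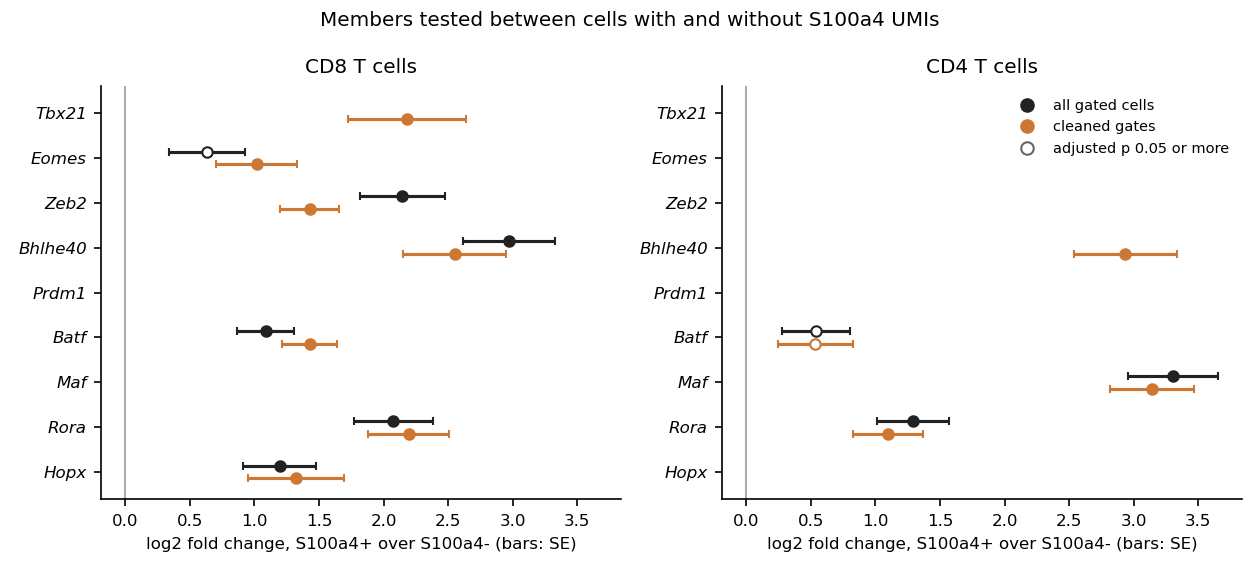
Log2 fold change with standard error of each tested factor between T cells with and without *S100a4* UMIs, in CD8 and CD4 T cells. Black points are all gated cells, orange points cleaned gates, and open points did not pass at an adjusted p of 0.05.

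Some factors were called in 1 lineage alone, and whether the *S100a4* difference itself differed between CD8 and CD4 T cells was tested as an interaction. None of 8 tested members was called, where 0% of 5347 genes were called by edgeR, 311 had an unadjusted p under 0.05 and DESeq2 called 1. *Hopx* (log2 difference of differences -1.33, standard error 0.64, unadjusted p 0.0503) and *Eomes* (-2.07, 1.04, 0.0604) came nearest, and *Prdm1* was filtered out. The sign of an interaction value below 0 means a smaller gain in CD8 than in CD4 T cells. A difference between the lineages was thus not detectable for any member, which is no sign that they were alike.

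A direct contrast of positive CD8 with positive CD4 T cells called 44 of 3629 genes. Of 6 tested members 1 was called, where 1.21% of all tested genes were: *Maf* was lower in CD8 (log2 value -1.86 with standard error 0.40, adjusted p 0.0230 by edgeR with Benjamini-Hochberg, lower in 4 of 4 libraries). Its CD8 levels of 0, 0.209, 1.78 and 0.167 compare with 1.22, 2.33, 3.22 and 1.82 in CD4, so that even the high OX40 CD8 value stayed under that of OX40 CD4 cells. *Zeb2* (0.98, 0.36, 0.304, higher in 3 of 4) and *Bhlhe40* (-0.59, adjusted p 0.635) did not pass, nor did *Batf*, *Rora* and *Hopx*. *Tbx21*, *Eomes* and *Prdm1* were filtered out. *Maf* lost its call without the library block (-1.72), with *S100a4* at 2 UMIs, which also left out Untreated (-1.59), and without PDOX (-1.32). Without PDOX 1 gene was called, and without Untreated 72. Cleaned gates, with OX40 and PDOX, called 2 of 8 tested members where 2.34% of all tested genes were called (89 of 3808): *Eomes* was higher in CD8 (2.18, 0.48) and *Maf* lower (-1.35, 0.33). Within libraries positive CD4 T cells thus held more *Maf* mRNA than positive CD8 T cells. In cleaned gates of OX40 and PDOX positive CD8 T cells held more *Eomes* mRNA. Across libraries the *Maf* levels met, with 1.78 in positive CD8 T cells of OX40 and 1.82 in positive CD4 T cells of PDOX. Markers of regulatory T cells (*Foxp3*, *Il2ra*, *Ctla4* and *Ikzf2*) summed to 6.53, 3.99, 6.88 and 3.86 in positive CD4 T cells. Their sums were 0.346, 1.63, 0.918 and 2.27 in negative CD4 T cells, and 0, 1.08, 2.58 and 1.78 in positive CD8 T cells.

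Within the effector gates OX40 and PDOX were set side by side for the factors with counts enough. In cleaned positive CD8 T cells *Maf* stood at 2.08 in OX40 and 0.161 in PDOX, a ratio of PDOX to OX40 of 0.0775 (0.0203 to 0.212). *Zeb2* ran the other way, at 1.13 and 2.34, a ratio of 2.07 (1.27 to 3.45), as did *Rora* with 1.93 (1.17 to 3.28; before cleaning 1.54, 0.992 to 2.44). *Bhlhe40* showed no detectable difference in these CD8 T cells, at 0.903 and 0.966 (ratio 1.07, 0.566 to 2.04). In cleaned positive CD4 T cells *Maf* stood at 3.46 in OX40 and 1.99 in PDOX (ratio 0.573, 0.386 to 0.850), and *Zeb2* at 0.0597 and 1.83 (ratio 30.6, 5.24 to 1236). *Bhlhe40* was higher in PDOX there, at 1.13 and 2.06 (ratio 1.82, 1.06 to 3.25). The PDOX library thus held less *Maf* and more *Zeb2* than the OX40 library inside the *S100a4* positive gate of both lineages. With 1 library on each side this was not tested, and effects of treatment, of mouse and of the mix of effector subsets in the gate cannot be told apart.

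The contrast of NK cells with positive CD8 T cells, in Untreated, OX40 and PDOX, called 53 of 785 genes. Only *Zeb2* had counts enough to be tested, and 0 of 1 member was called where 6.75% of all tested genes were called by edgeR. *Zeb2* stood 1.57 log2 units higher in NK cells (standard error 0.49, unadjusted p 0.0113, adjusted p 0.107, higher in 2 of 3 libraries). Of all genes 143 had an unadjusted p under 0.05, *Zeb2* among them, and DESeq2 called 41 genes and 0 members. Without Untreated *Zeb2* was called (2.05) and 216 genes were, against 7 without OX40 and 34 without PDOX. Cleaned gates, with OX40 and PDOX, called 1 of 5 tested members where 6.44% of all tested genes were called (149 of 2313): *Zeb2* was higher in NK cells by 2.56 (0.31). *Eomes* (0.65), *Bhlhe40* (0.69), *Batf* (-1.5) and *Rora* (-2.99) did not pass.

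*Klrg1* marks terminal effectors, so positive CD8 T cells with *Klrg1* UMIs were set against those without, in OX40 and PDOX. Of 8 tested members 0 were called, where 0.439% of all tested genes were called by edgeR (13 of 2961), 223 genes had an unadjusted p under 0.05 and DESeq2 called 3 genes and 0 members. *Zeb2* leaned upward (log2 value 0.63 with standard error 0.29, unadjusted p 0.0488, adjusted p 0.659), and *Maf* (-0.80) and *Batf* (-0.55) leaned downward. *Tbx21* (0.43), *Rora* (-0.32), *Eomes* (-0.24), *Bhlhe40* (0.13) and *Hopx* (0.07) were near even, and *Prdm1* was filtered out. The monocyte genes *Lyz2* (-4.04) and *Ifitm3* (-5.79) were called lower in *Klrg1* positive cells. In cleaned gates 1 of 2179 genes was called, and 0 of 6 tested members.

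Genes commonly described as targets of these factors were read in the same tests. The lists were chosen with earlier results of these data known, and the *S100a4* gate was used to mark antigen-experienced cells. The list counts are therefore a description, and an action of the members on these genes was not tested. Of 15 listed effector targets 12 were tested in CD8 T cells and 12 were higher in *S100a4* positive cells, where 520 of 5536 genes were, with a median log2 fold change of 2.45 beside -0.01 over all tested genes. *Gzmb* (3.20) and *Ifng* (2.90) gained most, and *Nkg7* (1.19) and *Il2rb* (0.90) least. Of 12 listed naive and memory factors 10 were tested and 8 were lower (median -1.05), where 407 of 5536 genes were. *Lef1* (-2.05) and *Satb1* (-1.91) fell most, and *Klf3* (-0.88) and *Foxo1* (-0.62) least among them. Of 27 listed partners 19 were tested, with 5 higher and 5 lower (median 0.09): *Id2* (2.05) and *Mafg* (1.17) rose, and *Zeb1* (-1.21) and *Junb* (-0.99) fell. *Mafg* lost its call in cleaned gates (0.94). *Zeb1*, the relative whose balance with *Zeb2* sets memory against terminal fate, thus ran opposite to *Zeb2*.

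In CD4 T cells the targets were higher in 8 of 8 tested, where 154 of 3344 genes were (median 2.93 beside -0.02 over all tested genes), led by *Ccl5* (3.91) and *Klrg1* (3.76). The naive and memory factors were lower in 5 of 10 (median -1.05), where 153 of 3344 genes were, led by *Bach2* (-2.66) and *Lef1* (-2.52). In cleaned gates 7 of 10 were lower, where 239 of 3965 genes were. Partners were higher in 4 and lower in 4 of 16 (median -0.31): *Id2* (2.02) and *Ikzf2* (1.85) rose, and *Jun* (-1.44) and *Zeb1* (-1.40) fell. *Zeb1* lost its call in cleaned gates (-1.23). Between positive CD8 and CD4 T cells 5 of 12 targets were higher in CD8 (28 of 3629 genes in all), with *Ccl4* (3.8), *Gzmb* (3.01) and *Gzma* (2.50) on top. The partners *Ikzf2* (-1.33) and *Gata3* (-1.28) were lower there, as was *Maf*. In NK cells against positive CD8 T cells 3 of 9 targets were higher (32 of 785 genes in all), *Gzma* (4.03), *S1pr5* (2.80) and *Klrg1* (2.06), beside the partner *Irf8* (4.07). The *S100a4* gate thus joined higher granule and chemokine genes with lower naive and memory factors. These were 8 of 10 tested in CD8 T cells with and without cleaning. In CD4 T cells they were 5 of 10, and 7 of 10 in cleaned gates. *Gata3* and *Ikzf2* rose with *S100a4* in CD4 T cells (1.47 and 1.85) and, in cleaned gates, also in CD8 T cells (1.09 and 1.09).

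The start of each gene was also read for sites of these factors, in the 250 bases before the RefSeq transcript start of GRCm38.p6. The promoter set used held 7 of the 9 members, and *Bhlhe40* and *Maf* were not in it and not read. The E-box CAGGTG, a site of ZEB proteins, was matched at *Tbx21* and *Prdm1*, and in 17.2% of 32851 promoters. The AP-1 site TGANTCA of BATF partners was matched at *Prdm1* and *Zeb2* (6.75% of promoters), and CACGTG, the site of BHLHE40, at *Hopx* (6.02%). The MAF half-site TGCTGA was matched at *Hopx* (16.1%). The T-box site AGGTGTGA (1.12% of promoters), the nuclear receptor half-site AGGTCA (14%) and the Blimp-1 site (0.07%) were matched at none of the 11 member entries. The piece upstream of *Tbx21*, on the minus strand of chromosome 11 from 97115382 to 97115581, reads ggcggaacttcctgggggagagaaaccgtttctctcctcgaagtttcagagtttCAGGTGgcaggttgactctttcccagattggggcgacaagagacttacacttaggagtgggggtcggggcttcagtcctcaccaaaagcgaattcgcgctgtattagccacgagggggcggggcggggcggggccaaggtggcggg with its 1 match in capitals. A match is a description of sequence, and binding was not measured.

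Taken by role, *Zeb2* and *Rora* were highest in PDOX among CD8 T cells with and without cleaning of the gates, *Maf* was highest in OX40, and after thinning neither the excess of *Tbx21* in PDOX over OX40 nor that of *Eomes* in PDOX over Untreated was detectable. *Bhlhe40* was higher with *S100a4* in CD8 T cells and *Maf* in CD4 T cells, *Bhlhe40* being too scarce there for a test before cleaning. In CD4 T cells *Maf* and *Rora* were high in both agonist groups, and in cleaned gates *Zeb2* was held by PDOX alone in number. *Batf* was present in all libraries, and *Prdm1* stayed near the limit of detection. These readings are of mRNA in the blood of 1 library per group, and protein, tumour tissue and further mice are not part of the data read here.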

How the data were processed

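The values are raw UMI counts per gene and cell barcode, deposited by the authors, whose processing notes name build mm10 and Seurat 2. Blood T cells had been enriched by repeated use of a T cell isolation kit, to a high purity by the paper's account. They were run as droplet 3' libraries, 1 for each of 4 groups. The monocyte mRNA and the NK cells described above were seen after this step. Cells with at least 200 genes were kept (135 of 5434 barcodes left out), and levels and tests did not use the 13 mitochondrial, 102 ribosomal and 10 hemoglobin genes. Median depth was 1434.5 to 1618 UMIs, so a single UMI in a small gate moves a level visibly, and levels carry exact Poisson intervals, shares Clopper-Pearson intervals and ratios conditional binomial intervals at 95%. No doublet caller was run; cells with UMIs of more than 1 gate were in no gate, and cleaned gates also leave out cells with 2 or more markers of another lineage. UMIs were summed per library and gate, with at least 10 cells required. B-cell values are not reported here.

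Tests used edgeR 4.0.16 (quasi-likelihood, TMM, filterByExpr, library as a block) in R 4.3.3, with Benjamini-Hochberg adjustment over all tested genes at 0.05. Standard errors are the log2 value over the root of F. The pipeline was tested on simulated data. Alternatives were DESeq2 1.42.0, its size factors, no filter, no block, all genes kept, cleaned gates, thinning to 750 UMIs, leaving out the 5% deepest cells, a stricter *S100a4* gate, *S100a4* by level and leaving out each library. The 2-UMI *S100a4* gate was chosen after seeing the data. Members and lists (effector targets, partners and relatives, naive and memory factors, monocyte markers) were chosen with earlier results of these data known. Other genes are named where a list holds them at its highest or lowest values. Python used numpy 2.4.6, pandas 2.3.3 and scipy 1.17.1. A split of CD4 T cells by *Foxp3* had enough cells in 1 library and was not tested.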

Additional observations from a re-analysis of the deposited data

How the results depend on the processing

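Each group had 1 library, so no value by treatment has a replicate, and mouse, library and treatment cannot be told apart. No paired analysis across mice was possible because each mouse group gave 1 library, and the tests pair gates within libraries. Most members have few UMIs, the *S100a4* positive gates of Untreated held 13 and 10 cells, and positive cells were deeper than negative ones. Gates rest on mRNA of single genes. Of the values of single members under the alternatives, 385 stayed on the same side of the call threshold, 9 newly passed, 10 no longer passed and 0 reversed. Of the counts, 135 stayed alike and 57 moved. The *S100a4* gate by level held the same cells and UMIs as the main gate, so this alternative could not move a value.

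Members at least 2-fold above Untreated in CD8 T cells numbered 0 of 2 in PDL1 (188 of 5026 genes), 2 of 4 in OX40 (212 of 4914) and 3 of 4 in PDOX (201 of 4185) after thinning, and 3 of 7 in OX40 without the deepest cells (267 of 7044). For *S100a4* in CD8 T cells, the genes called were 608 by DESeq2, 1470 without a filter, 250 after thinning and 304 to 1075 without each library in turn, and in cleaned gates 602 without PDL1 and 382 without PDOX, with 3 members after thinning. In CD4 T cells they were 180 by DESeq2, 517 in cleaned gates, 108 after thinning and 126 to 367 without each library, with 5 members without a filter. The interaction called 1 gene by DESeq2, 31 without a filter, 1 in cleaned gates, 1 after thinning, 6 without the deepest cells and 0 to 1 without each library.

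CD8 against CD4 called 20 genes by DESeq2, 104 without a filter, 0 without the block, 89 in cleaned gates, 24 after thinning and 1 to 72 without each library. Its members numbered 3 without a filter, 0 without the block, 2 in cleaned gates, 0 with *S100a4* at 2 UMIs and 0 to 2 without each library. NK against *S100a4* positive CD8 T cells called 184 genes without a filter, 149 in cleaned gates, 122 without the deepest cells, 189 with *S100a4* at 2 UMIs and 7 to 216 without each library. Its members numbered 1 without a filter, 1 with all genes kept, 1 in cleaned gates, 1 without the deepest cells, 2 with *S100a4* at 2 UMIs and 0 to 1 without each library. The *Klrg1* split called 30 genes with DESeq2 size factors, 3 by DESeq2, 28 without a filter, 5 without the block, 40 with all genes kept, 1 in cleaned gates and 23 with *S100a4* at 2 UMIs. It could not be fitted with a library left out.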

Other observations

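Within the *S100a4* positive CD8 T cells of OX40 (cleaned gates) the 24 cells with *Maf* UMIs carried *Batf* at 3.68 UMIs per 10000 (2.38 to 5.43), against 1.43 (0.899 to 2.17) in the 75 without, at median depths of 2987 and 1783 UMIs. *Lag3* stood at 6.76 (4.95 to 9.02) against 2.28 (1.59 to 3.17) and *Tox* at 5.88 (4.20 to 8.01) against 2.80 (2.03 to 3.77), while *Klrg1* stood at 0.294 (0.0356 to 1.06) against 1.76 (1.16 to 2.56). The 19 cells with *Eomes* in the same gate shared the high *Batf* (5.33 against 1.39) and *Lag3* (8.24 against 2.61), and had 0 UMIs of *Tbx21* against 10 in the other 80. In PDOX the *Eomes* cells, also 19, held *Tbx21* at 1.88 (0.903 to 3.46) against 0.307 (0.113 to 0.669), and 0 UMIs of *Maf*. These are values of few cells in single libraries, and a difference between the libraries was not tested. *Lag3*, *Tox*, *Cxcr3* and *Ikzf2* were chosen for these splits after their values were seen.

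*Zeb2* cells of PDOX were read in both lineages, in *S100a4* positive cells of the cleaned gates. In CD8, 29 cells with *Zeb2* against 89 without had *Cxcr3* at 1.10 against 4.82, *Lag3* at 0.157 against 1.68 and *Klrg1* at 2.36 against 1.41. In CD4, 17 cells with *Zeb2* against 111 without had *Klrg1* at 5.93 (3.62 to 9.16) against 0.314 (0.126 to 0.646), *Cxcr3* at 1.78 against 4.80, *Ikzf2* at 0.890 against 3.54 and *Bhlhe40* at 4.45 against 1.70. *Maf* cells of CD4 stood apart from them: in PDOX *Zeb2* was at 0.429 in the 41 *Maf* cells against 2.63 in the 87 others, and *Ikzf2* in OX40 was at 6.02 in 31 *Maf* cells against 2.77 in 40 others. The counts with *Foxp3* that follow are of the gates before cleaning. Over the 4 libraries 21 *S100a4* positive CD4 T cells had *Foxp3* UMIs, and *Maf* was seen in 11 of them and *Zeb2* in 0. In OX40 *Maf* was seen in 4 of 8 cells with *Foxp3* and 28 of 66 without, and in PDOX in 6 of 10 and 42 of 145. *Zeb2* was seen in 1 of the 66 and 20 of the 145 without *Foxp3*, and with 0 of 8 and 0 of 10 a difference was not detectable at these numbers.

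Across 20 profiles (4 libraries by 5 gates, which share libraries and depth) *Tbx21* ran most like *Fasl* (Spearman 0.925), *Eomes* like *Lamb3* (0.814) and *Runx3* (0.802), *Bhlhe40* like *Id2* (0.902), *Batf* like *Ctla4* (0.806), *Rora* like *Trpv2* (0.868) and *Itgb1* (0.857), and *Hopx* like *Selplg* (0.879). *Maf* ran like *Yipf3* (0.820) and *Tnfrsf4* (0.817). *Zeb2* ran like the myeloid and NK gene *Fcer1g* (0.897) over all gated cells and like *Gzmb* (0.916) in cleaned gates. In cleaned gates the nearest genes of the other members changed too: *Serpinb6b* (0.902) for *Tbx21*, *Cd160* (0.880) for *Eomes*, *Rap1b* (0.879) for *Bhlhe40*, *Arl6ip1* (0.871) for *Batf*, *Cab39l* (0.902) for *Maf*, *Nrp1* (0.940) for *Rora* and *Ctsw* (0.858) for *Hopx*. These like genes were chosen after their values were seen.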
